A study of Mus musculus with 29 samples.

Results

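In 462 genes of mouse C2C12 myoblasts, a cell line that turns from dividing precursors into muscle cells in culture, transcripts ended at 3 or more major polyadenylation (pA) sites. A pA site is the position where a transcript is cut and receives its poly(A) tail. Positions listed under more than 1 gene symbol were set aside, the chromosome and strand with most reads of each gene were kept, and a site counted as major when it held 15% or more of its gene's reads over 26 libraries. Of 8928 genes with at least 520 such reads, 434 had 3 major sites and 28 had 4, which gives 1414 sites and 952 pairs of neighbouring sites. Another 2354 genes had exactly 2 major sites and are used for comparison. Because the pooled shares chose the members, those shares are described without a test. Just inside the limit, the smallest major site of Thoc1 held 15.008% and that of Obfc2a 15.0083%, and just outside it the next site of Ap1g1 held 14.9969% and that of Galc 14.9923%.

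Alternative polyadenylation lets a gene make transcripts that differ in the length of their 3′ untranslated region, or, where an upstream site lies in an intron, in the coded protein as well. The pA site is chosen in the nucleus by the cleavage and polyadenylation machinery, which reads signals around each site. Proteins and small RNAs that bind the 3′ untranslated region can set where a transcript goes, how well it is translated and how long it lasts, and messages for secreted and membrane proteins reach the endoplasmic reticulum during their translation.

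Reads next to the poly(A) tail were sequenced with a 3′ end method (3′READS+) in 26 libraries, and 3 further RNA-seq libraries came from cytosol, membrane and insoluble material. Cells were either proliferating in 10% fetal bovine serum or differentiating in 2% horse serum, although the labels of the differentiating monosome libraries list the growth medium with 10% fetal bovine serum. Cytosolic and membrane-bound RNA were extracted one after the other. From each state and fraction, polysome (many ribosomes) and monosome (1 ribosome) RNA was taken from a gradient, in 2 libraries for each of 8 groups. Proliferating cells were also given 100 µg/ml of puromycin, which releases growing chains from ribosomes, for 0, 30 or 60 minutes or were left untreated, with 1 cytosolic and 1 membrane library each. Whole cytosol and membrane of proliferating cells had 1 library each. Nothing in the labels tells whether replicate libraries are separate cultures, and the p-values therefore reflect the scatter among these libraries alone, which may be technical.

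The gradient libraries held 2987706 to 8289093 reads, of which 32143 to 128718 fell on the members, and a library's median per member was 24 to 127 reads. The puromycin libraries held 5533678 to 11721948 reads with a median of 54 to 161.5 per member. Genes of differentiating muscle went with the state labels: 8 of them summed to 25.1 to 259 counts per 1000000 reads (CPM) in proliferating and 1929 to 12413 CPM in differentiating libraries. The 4 myoblast genes Myod1, Myf5, Des and Cdh15 did not set the proliferating state apart by higher values. They summed to 295 to 1062 CPM in proliferating and 1206 to 2075 CPM in differentiating libraries. Of 4 genes of other cell types, Pecam1 (endothelium) reached at most 0.172, Ptprc (leukocytes) 0.187 and Pdgfra (fibroblasts) 2.35 CPM, while Col3a1, a fibrillar collagen, reached 5650 CPM in proliferating and 6349 CPM in differentiating libraries. The fractions went with their labels: 4 endoplasmic reticulum-bound messages summed to 78.7 to 271 CPM in cytosolic and 2705 to 3951 CPM in membrane libraries of proliferating cells. The nuclear RNAs Malat1 and Neat1 also differed between the fractions, at 1.81 to 22.7 CPM in cytosol and 19.2 to 659 CPM in membrane of proliferating cells and at 1.54 to 9.45 and 7.76 to 163 CPM in differentiating cells. Their part in the fraction results below was not tested.

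The sites of a member lay close together in most genes. From first to last major site the median member spanned 1832.5 nucleotides (quartiles 771.5 and 3968.5, range 92 to 311170), and neighbouring sites were a median of 591 nucleotides apart. There were 145 gaps under 100 nucleotides, and 63 above 10000. In members with 3 sites the median pooled share was 23.5% for the first, 26.0% for the middle and 27.2% for the last site along the strand. The last site was the most used in 175 of these genes, the middle site in 144 and the first in 115. The file of sites names a gene for each position but not whether it lies in an exon, an intron or an untranslated region, so positions are given in mm9, the build the submitters' processing notes name, without that annotation.

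The 3-way split was not the same in every pool of libraries. Of members with at least 100 reads in the pool, 274 of 352 (77.8%) kept 3 or more major sites in proliferating cytosol and 327 of 435 (75.2%) in proliferating membrane. The shares were 212 of 311 (68.2%) in differentiating cytosol and 251 of 382 (65.7%) in differentiating membrane, and 64.8% and 63.4% in the puromycin cytosol and membrane. Members were chosen on reads that include these pools, and the pools differ in depth and in the members counted. The part of counting error in these shares was not tested.

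**Figure D1:**
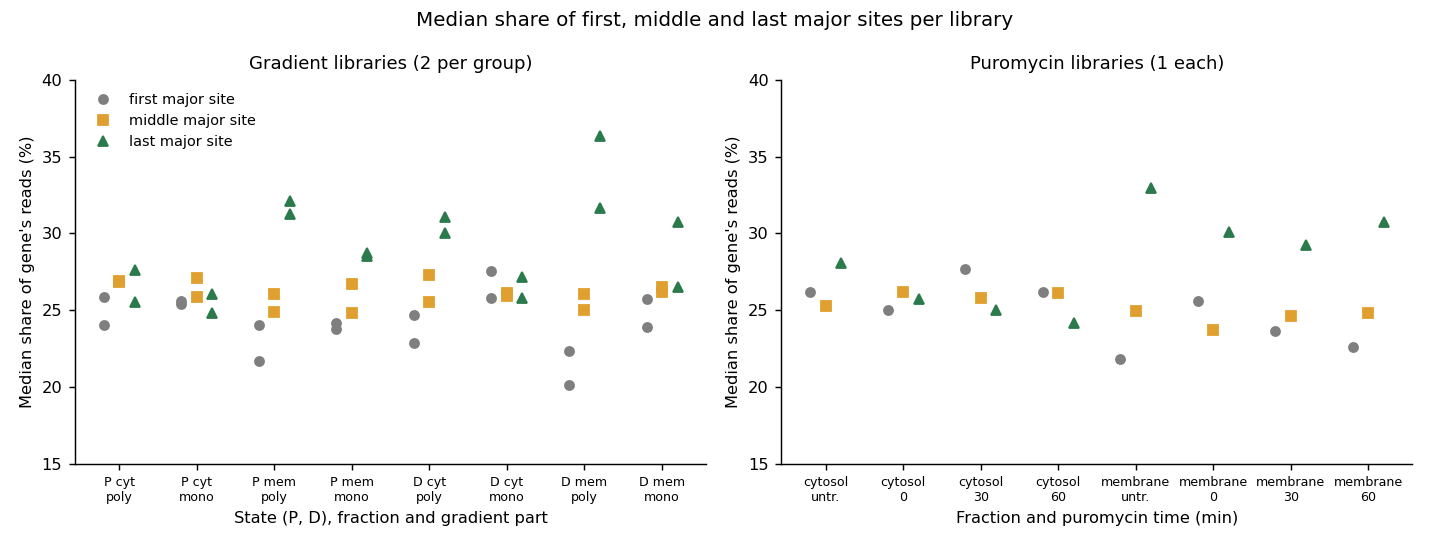
Median share in percent of the first, middle and last major site over 191 members with at least 20 reads in every library, 1 point for each of 16 gradient libraries (left) and 8 puromycin libraries (right). The last site sits between 24.8% and 27.6% in proliferating cytosol and between 28.5% and 32.1% in proliferating membrane.

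The fraction comparison asks whether the transcripts of a gene that end at different sites are found on membranes to different extents. Over the 191 members with at least 20 reads in every library, the median share of the last site was 24.8% to 27.6% in the 4 libraries of proliferating cytosol and 28.5% to 32.1% in the 4 of proliferating membrane, which do not overlap. In differentiating cells the ranges overlap, with 25.8% to 31.1% in cytosol and 26.5% to 36.4% in membrane. In whole extracts of proliferating cells it was 27.6% in cytosol and 31.0% in membrane. The first site went the other way, with 24.1% to 25.9% in cytosol and 21.7% to 24.1% in membrane, while the middle site stayed within 25.9% to 27.1% and 24.8% to 26.7%. In genes with 2 major sites the last site held 40.4% to 44.5% and 45.5% to 46.9%.

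For each major site the reads at the site were then compared with all other reads of its gene, as a log2 odds ratio between groups, with edgeR's quasi-likelihood test and Benjamini-Hochberg adjustment over every major site of the members and the last major site of the 2-site genes (3767 sites tested in the gradient and 3760 in the puromycin libraries). A site is called when its adjusted p is under 0.05. Values of single genes come from the fit without pairing of libraries, unless the replicate block or a term for each exposure time is named. In proliferating cells 18 member sites in 13 genes were called between membrane and cytosol, 1.27% of the members' sites against a background of 1.59% of all sites tested. All 5 called last sites were higher in the membrane (background 1.42% higher and 0.249% lower among the last sites of genes with 2 or more), and 7 of the 8 called first sites were lower there. The median log2 odds ratio of all members' last sites was 0.26, with 304 of 462 above 0, against 0.20 in genes with 2 sites.

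Znrf2, a membrane-associated ubiquitin ligase, has 4 major sites on the plus strand of chromosome 6 at 54838709, 54839108, 54839452 and, 8876 nucleotides further, 54848328. Its last site held 10.7% and 10.5% of its reads in the proliferating cytosolic polysome libraries, 3.81% and 2.79% in the cytosolic monosome, 31.1% and 27.1% in the membrane polysome and 19.3% and 16.2% in the membrane monosome libraries. Every membrane library was above every cytosolic one. The log2 odds ratio was 2.24 ± 0.41 (SE, n = 4 against 4 libraries, edgeR adjusted p = 0.00496), and the call was kept without any 1 of the 16 libraries. The whole extracts gave 9.64% (95% Wilson interval 6.71% to 13.7%) in cytosol and 28.4% (22.7% to 34.8%) in membrane. At the level of the whole gene Znrf2 was lower in the membrane, with a log2 fold change of -1.17.

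Asb1, which carries substrates to cullin ubiquitin ligases, has sites at 93451695, 93452663 and 93456167 on the plus strand of chromosome 1. The last held 14.3%, 31.1%, 21.5% and 16.9% in the proliferating cytosolic libraries and 41.1%, 44.6%, 58.0% and 50.0% in the membrane libraries, without overlap (log2 1.84 ± 0.43, adjusted p = 0.029). In the fit without the replicate block this is less firm than Znrf2: leaving out 1 library ended the call of Asb1 in 7 of 16 cases.

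Med14, a subunit of the Mediator complex of transcription, went against the other called first sites. Its first site, at 12263555 on the minus strand of the X chromosome and 10871 nucleotides before the next, held 6.63%, 1.54%, 22.4% and 30.2% of its reads in the proliferating cytosolic libraries and 36.8%, 59.0%, 49.8% and 72.9% in the membrane libraries. The groups did not overlap, and the log2 odds ratio was 3.38 ± 0.46 (adjusted p = 0.000634). Arhgef2, an exchange factor for small GTPases that binds microtubules, was among those with a first site lower in the membrane, which held 8.33%, 8.38%, 31.4% and 29.3% in cytosol and 2.93%, 3.24%, 10.2% and 4.52% in membrane. These groups overlap in range, since the monosome libraries were above the polysome libraries in each fraction, and the log2 odds ratio was -1.99 ± 0.44 (adjusted p = 0.0233).

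Without any 1 of the 8 proliferating libraries, 9 to 12 member sites were called in place of 18, the lowest count of 9 being reached without the first or the second cytosolic polysome or the second membrane polysome library. With the replicate number as a block 77 sites in 56 genes were called (background 7.33%), of which 30 last sites were higher (background 6.78%) and 4 lower (1.49%) in the membrane.

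In differentiating cells the same contrast called 1 member site, the first site of Med14 (log2 2.66 ± 0.47, adjusted p = 0.0137), against a background of 0.239%. It held 5.97%, 9.35%, 24.6% and 26.1% in cytosol and 40.4%, 49.5%, 54.3% and 61.9% in membrane, without overlap. The median log2 odds ratio of the last sites was 0.20, and 96 member sites had an unadjusted p under 0.05. With the replicate block 13 sites were called (background 2.2%), among them the last sites of Tm4sf1, a surface protein related to tetraspanins (log2 1.97, adjusted p = 0.00238), and Nup50, a nuclear pore protein (adjusted p = 0.00184). The difference of the fraction effect between the states was called for 0 member sites by edgeR and by DESeq2 (background 0%), with 44 at an unadjusted p under 0.05.

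The distance between neighbouring sites went with the size of the shift in proliferating cells, and less clearly in differentiating cells. For each neighbouring pair, the reads at the downstream site were set against those at the upstream site, and this log2 odds ratio is called a step. In proliferating cells, the median membrane to cytosol step of the members was -0.03 for 261 pairs under 200 nucleotides apart and 0.02 for 326 pairs of 200 or more but under 1000. It was 0.31 for 248 pairs of 1000 or more but under 4000 and 0.60 for 115 pairs of 4000 nucleotides or more (quartiles -0.08 and 1.30), of which 72.2% were above 0. Genes with 2 sites gave 0.03, 0.11, 0.34 and 0.61 in the same classes. In differentiating cells the members' medians were 0.13, 0.06, 0.17 and 0.26, and 59.8%, 53.7%, 59.7% and 60.9% of pairs were above 0. The quartiles of the longest class were -0.49 and 0.93. Pairs share genes and libraries, so these medians are a description.

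Single steps were called for 8 pairs in proliferating cells (background 1.54%), among them the step to the last site of Znrf2 (2.68 ± 0.48, adjusted p = 0.00396) and of Asb1 (2.46 ± 0.48, adjusted p = 0.0071). The step from the first to the middle site of Med14 was lower in the membrane (-3.16 ± 0.54, adjusted p = 0.00326). Without the first proliferating cytosolic polysome library 5 steps were called. With the replicate block 38 steps in 36 genes were called (background 7.05%). In 29 of these genes 1 step was higher, in 5 genes 1 was lower, in 1 gene several were higher and in 1 gene called steps went in opposite directions. In differentiating cells 0 steps were called by edgeR (background 0.182%), with 46 at an unadjusted p under 0.05, and 9 with the replicate block (background 2.15%).

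**Figure D2:**
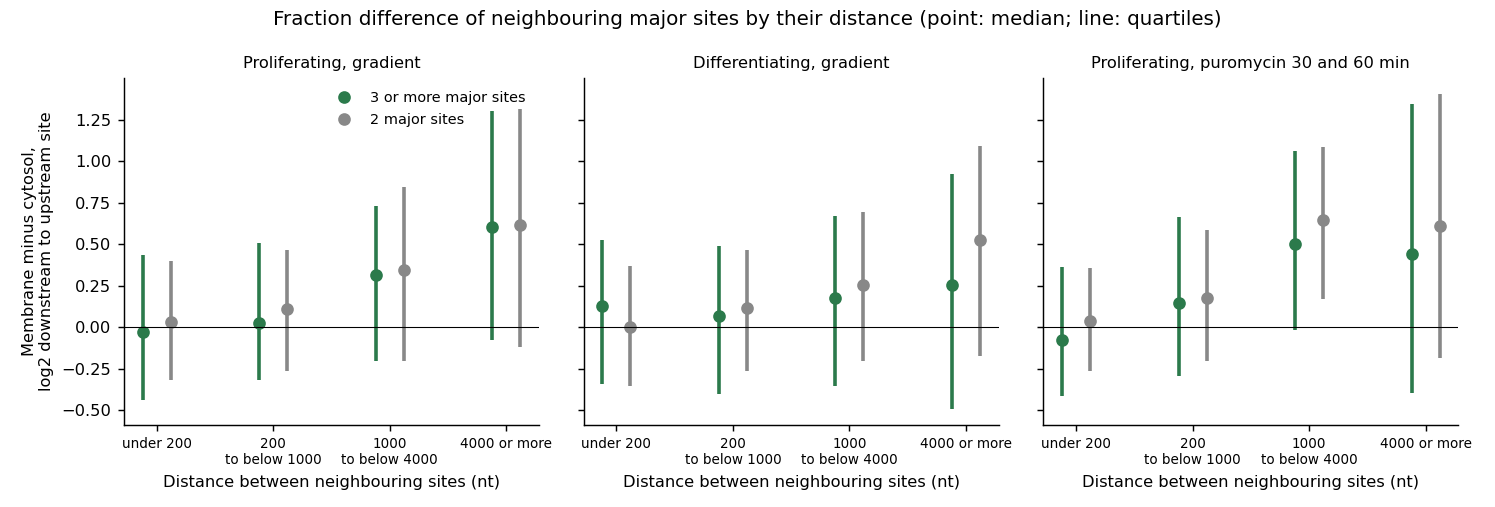
Log2 odds ratio of a downstream against its upstream neighbour, membrane against cytosol, by the distance between them in nucleotides, for members and for genes with 2 major sites, with medians as points and quartiles as bars in proliferating gradient, differentiating gradient and puromycin-exposed libraries. In proliferating cells the members' medians run from -0.03 under 200 nucleotides to 0.60 at 4000 or more.

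Among members with 3 sites and at least 20 reads in each fraction, the log2 odds ratio in proliferating cells increased from first to middle to last site in 77 of 263 genes and decreased in 26. It was highest at the middle site in 75 and lowest there in 85. The same order was found in both replicate numbers in 29 of the 77, 8 of the 26, 37 of the 75 and 48 of the 85 genes. The most-read members showed small values: the last site of Rab11a, a GTPase of recycling endosomes, had a log2 odds ratio of 0.15 (adjusted p = 0.89), that of Rab2a, a GTPase of the Golgi, 0.16 (adjusted p = 0.88), and that of Mrps7, a mitochondrial ribosomal protein, 0.03 (adjusted p = 0.98). Timm17a, of the mitochondrial import channel, gave 0.26 (adjusted p = 0.77) and Mapre1, which binds growing microtubule ends, 0.32 (adjusted p = 0.72).

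The gradient comparison asks which transcript ends are found with many ribosomes and which with 1. In the cytosol 16 member sites in 11 genes were called between polysome and monosome libraries over both states, against a background of 1.46%. All 7 called last sites were higher in polysomes (background 1.21% higher and 0.426% lower) and 7 of 8 called first sites were lower. The median log2 odds ratio of the members' last sites was 0.21, against 0.08 in genes with 2 sites. Without any 1 of the cytosolic libraries the count was 5 to 11, the lowest without the second proliferating polysome library. With the replicate block it was 78 sites in 58 genes (background 6.82%), with 25 last sites higher (background 5.26%) and 6 lower (2.2%).

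Sec14l1, a protein with a lipid-binding SEC14 domain, was called at both ends, at 116990077 and 117020579 on the plus strand of chromosome 11. In the cytosol its last site held 71.8% and 75.7% in proliferating polysomes against 25.7% and 26.2% in monosomes, and 54.3% and 80.7% against 17.0% and 25.5% in differentiating cells. Its first site held 12.0%, 5.48%, 7.11% and 7.06% in these polysome libraries and 52.4%, 56.1%, 49.1% and 34.7% in the monosome libraries. Neither site overlapped between the gradient parts. The log2 odds ratio was 3.04 ± 0.46 for the last site (adjusted p = 0.00226) and -3.49 ± 0.39 for the first (adjusted p = 6.52e-05). On the membrane the first site was also lower in polysomes (log2 -2.25 ± 0.39, adjusted p = 0.00802), and the last site gave 1.66 (adjusted p = 0.158, and 9.89e-06 with the replicate block).

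Rnf220, a RING-type ubiquitin ligase, and Znrf2 were called at the last site in both fractions. The last site of Rnf220, at 116944069 on the minus strand of chromosome 4, held 50.0%, 48.3%, 50.0% and 42.6% in the 4 cytosolic polysome libraries and 16.8%, 13.1%, 31.0% and 18.8% in the monosome libraries (log2 1.92 ± 0.37, adjusted p = 0.0107). On the membrane it held 58.1%, 63.8%, 75.4% and 71.9% against 31.2%, 23.5%, 27.8% and 34.7% (log2 2.32 ± 0.38, adjusted p = 0.00616). The polysome and monosome libraries of Rnf220 did not overlap in either fraction. For Znrf2 the values were 2.54 ± 0.46 in cytosol (adjusted p = 0.0061) and 2.77 ± 0.45 on the membrane (adjusted p = 0.00616), where its last site held 36.6% and 29.8% in differentiating polysomes and 3.36% and 0% in monosomes. These calls of Rnf220 on the membrane and of Znrf2 in both fractions were kept without any 1 of the 16 libraries.

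Other last sites called in cytosolic polysomes were those of Dtymk, the kinase that makes thymidine diphosphate (log2 2.46 ± 0.56, adjusted p = 0.03), Nap1l1, a histone chaperone (1.31 ± 0.27, adjusted p = 0.017), and Adamts5, a secreted protease of the matrix (4.69 ± 1.00, adjusted p = 0.0214). Nap1l1 had 873 to 2879 reads in each cytosolic library, and its last site held 18.3% to 32.4% in polysomes and 6.54% to 14.4% in monosomes. Adamts5 had 7 to 19 reads there, and leaving out 1 library ended its call in 6 of 16 cases and that of Dtymk in 5. First sites of 2 genes were lower in polysomes as well as in the membrane, those of Arhgef2 (log2 -2.05 ± 0.40, adjusted p = 0.0113 in the cytosolic gradient) and of Sec14l1 (-1.67 ± 0.38, adjusted p = 0.0285 in the proliferating membrane). The first site of Med14 was lower in cytosolic polysomes (log2 -2.64 ± 0.51, adjusted p = 0.0107) although it was higher in the membrane.

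On the membrane 3 member sites were called (background 0.504%), the last sites of Znrf2 and Rnf220 and the first site of Sec14l1, and the median log2 odds ratio of the last sites was 0.16. Without the first differentiating membrane polysome library 5 sites were called. With the replicate block 42 sites in 33 genes were called (background 3.77%), 12 last sites higher (background 3.12%) and 2 lower (0.923%). The gradient effect differed between the fractions at 0 member sites by edgeR and by DESeq2 (background 0%), with 78 at an unadjusted p under 0.05, and at 9 sites with the replicate block (background 0.982%).

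**Figure D3:**
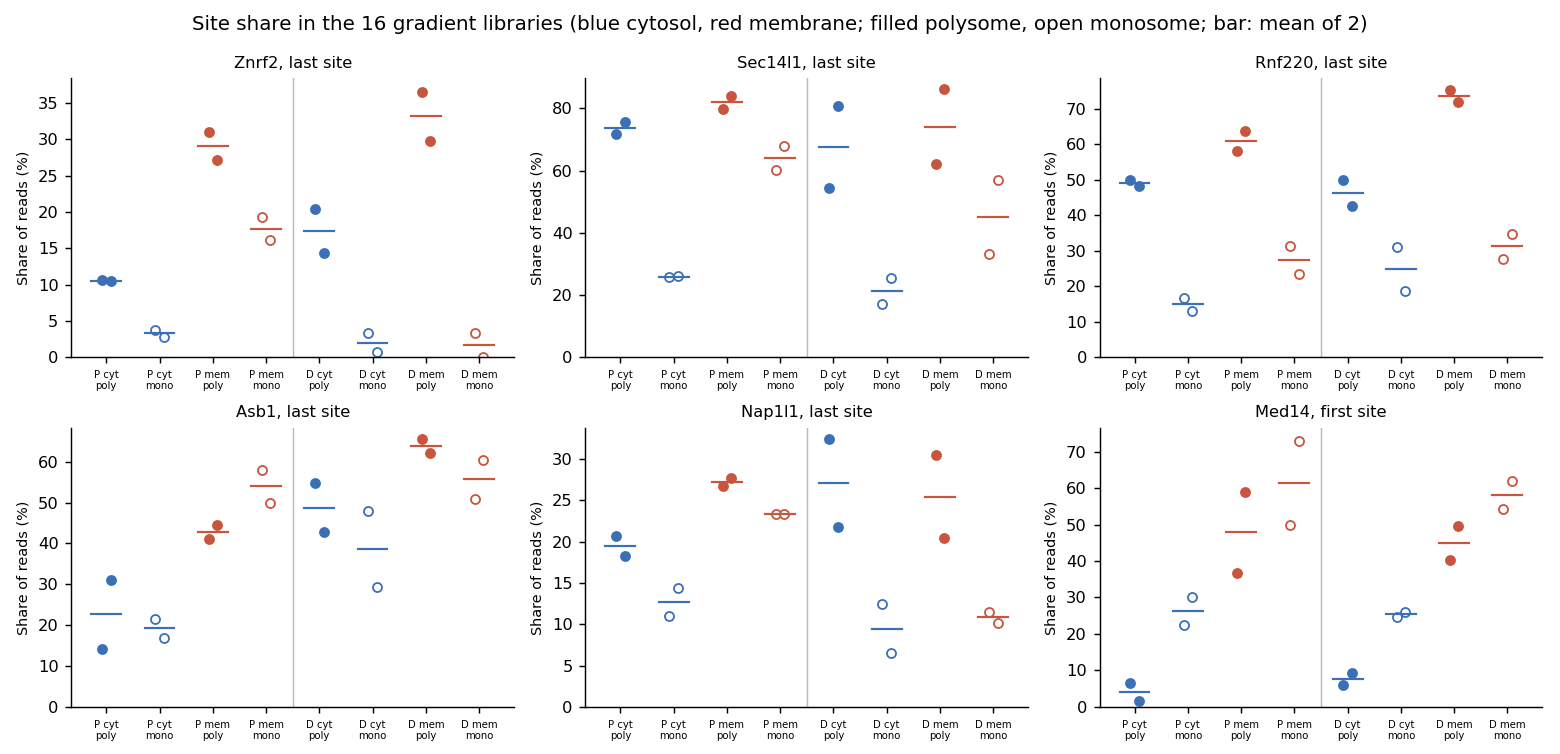
Share in percent of the last site of Znrf2, Sec14l1, Rnf220, Asb1 and Nap1l1 and of the first site of Med14 in each of the 16 gradient libraries (blue cytosol, red membrane, filled polysome, open monosome), with a bar at the mean of 2 libraries. In proliferating cells the last site of Znrf2 sits between 2.79% and 10.7% in cytosol and between 16.2% and 31.1% in membrane.

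The state comparison set the 8 differentiating against the 8 proliferating gradient libraries. The libraries of a state carry only 2 replicate numbers, and same-numbered libraries deviated together. The fit without the block counts all libraries as independent, so its p-values do not measure the spread between preparations of cells. It called 34 member sites in 31 genes, 2.41% of the members' sites against a background of 3.08%. There were calls in both directions at both ends: 7 last sites were higher (background 2.13%) and 4 lower (1.17%) in differentiating cells, and 8 first sites were higher and 8 lower. Of the middle sites 1 was higher and 6 were lower. The median log2 odds ratio was 0.14 for the last and -0.13 for the first sites. The count of 34 was 23 to 26 without the second differentiating cytosolic monosome or polysome, the second differentiating membrane polysome or the first proliferating cytosolic or membrane monosome library. Without any 1 of the other libraries it was 10 to 20, the lowest without the second proliferating membrane monosome library. With the replicate block 142 sites in 101 genes were called (background 12%).

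The last site was lower in differentiating cells for Tardbp and Cpsf2. Tardbp, an RNA-binding protein that acts in splicing and binds 3′ untranslated regions, has its last site at 147986496 on the minus strand of chromosome 4. That site held 0% to 22.0% (median 13.1%) in differentiating and 25.9% to 39.7% (median 32.2%) in proliferating libraries, which do not overlap, from 8 to 60 and 27 to 290 reads. Its log2 odds ratio was -1.82 ± 0.41 (adjusted p = 0.0198). Cpsf2, a subunit of the complex that recognises the polyadenylation signal, had a last-site share of 0% to 39.0% (median 18.0%) and 21.9% to 53.5% (median 41.1%), with overlap, and a log2 odds ratio of -1.74 ± 0.38 (adjusted p = 0.0175). With the replicate block the last sites of Rbbp6, a RING protein of the 3′ processing machinery (-1.53, adjusted p = 0.0117), and of Matr3, a nuclear matrix protein that binds RNA (-1.14, adjusted p = 0.00296), were also called. Leaving out 1 library ended the call of Tardbp in 1 and that of Cpsf2 in 2 of 16 cases. Without the block Rbbp6 and Matr3 gave -1.43 (adjusted p = 0.408) and -1.08 (adjusted p = 0.225).

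Of 23 cleavage and polyadenylation genes with at least 520 reads 3 were members (Cpsf2, Cpsf6 and Rbbp6), and 1 last site was lower in differentiating cells without and 2 with the replicate block. Of 39 proteins that bind 3′ untranslated regions 3 were members (Matr3, Syncrip and Tardbp), with 1 last site lower without the block and 2 with it. Over the last sites of all genes with 2 or more, 1.17% were lower without and 4.23% with the block, and with 3 members each the counts show nothing particular to these lists. Of the cytoskeleton and muscle list, with 57 genes, and the ribosome and translation list, with 43, 0 genes were members. Among all 8928 genes with at least 520 reads 462 were members, and whether a list departs from that share was not tested. Members on other lists were 5 of 61 membrane and secreted proteins (Bmpr1a, Col4a1, Igfbp5, Ncam1 and Notch2) and 4 of 63 kinases and phosphatases (Csnk1a1 and Ppp2r5e among them). They were 2 of 42 genes of endoplasmic reticulum translocation and folding (Mtdh and Tram1) and 1 of 45 of the ubiquitin system (Nedd4). No last site of these 4 lists was called between the states.

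Arhgef2 moved away from its last site. The first site held 11.6% to 71.0% (median 34.4%) in differentiating and 2.93% to 31.4% (median 8.36%) in proliferating libraries, and the last site 14.4% to 57.7% and 33.8% to 72.9%. Both overlap in range, since each also differs between fractions and gradient parts. The log2 odds ratio was 2.54 ± 0.29 for the first (adjusted p = 3.79e-05) and -1.20 ± 0.25 for the last site (adjusted p = 0.0123). The whole gene was higher in differentiating cells by a log2 fold change of 1.35. Dcun1d1, which helps to attach NEDD8 to cullins, had a last-site share of 8.26% to 15.8% in differentiating and 15.8% to 23.6% in proliferating libraries (log2 -0.77 ± 0.20, adjusted p = 0.0378), a call lost in 14 of 16 cases when 1 library was left out.

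The last sites that were higher in differentiating cells belonged to genes of varied function. Mvk, mevalonate kinase of sterol synthesis, has its last site 7439 nucleotides after the middle one, and it held 61.6% to 85.8% (median 77.1%) against 35.4% to 68.0% (median 56.1%), with a log2 odds ratio of 1.50 ± 0.36 (adjusted p = 0.0326). Gabpa, an ETS-family transcription factor, gave 29.1% to 61.4% against 18.5% to 32.4% (1.64 ± 0.43, adjusted p = 0.0452). Matn2, a matrix protein, gave 23.3% to 63.8% against 9.68% to 32.0% (1.50 ± 0.37, adjusted p = 0.0363), and Eny2, a subunit of the SAGA coactivator and of an mRNA export complex, 19.3% to 42.5% against 14.9% to 30.0% (0.83 ± 0.21, adjusted p = 0.0381). The ranges of these 4 genes overlap between the states. Leaving out 1 library ended the call in 10 (Mvk), 14 (Gabpa), 12 (Matn2) and 11 (Eny2) of 16 cases.

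First and middle sites changed in other genes. The first site of Ncam1, the neural cell adhesion molecule and a member of the list of membrane and secreted proteins, held 15.1% to 38.9% in differentiating and 0% to 21.3% in proliferating libraries (log2 2.22, adjusted p = 0.00714), with overlap and from 10 to 552 reads. The middle site of Nedd4, a ubiquitin ligase, held 1.35% to 16.1% against 10.2% to 27.9% (log2 -1.52, adjusted p = 0.034). The ranges of Nedd4 also overlap between the states. Steps were called for 14 pairs in 14 genes (background 2.57%), 7 higher (1.6%) and 7 lower (0.969%), and for 77 pairs with the replicate block (background 11.6%). The step count was 3 without the second proliferating cytosolic polysome library, 4 without the second proliferating membrane monosome library and 6 to 14 without any 1 of the others. With the block 8 of 68 genes had called steps in opposite directions, that is, a middle site that gained or lost against both neighbours.

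**Figure D4:**
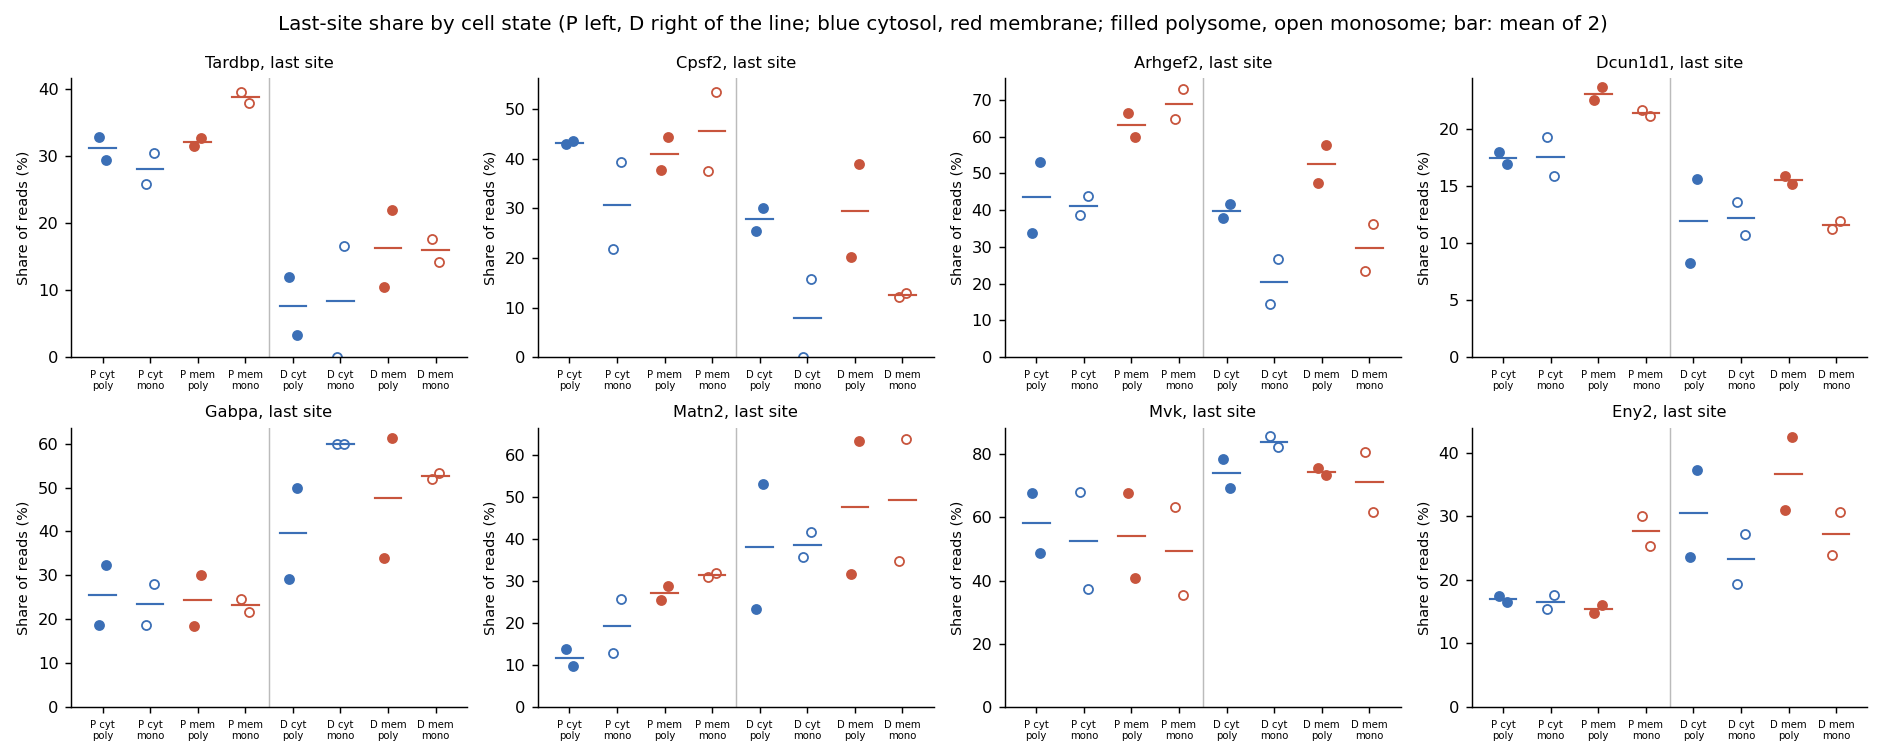
Share in percent of the last site of 8 members in the 16 gradient libraries by state, fraction and gradient part, with a bar at the mean of 2 libraries (blue cytosol, red membrane, filled polysome, open monosome). For Tardbp the proliferating libraries sit between 25.9% and 39.7% and the differentiating ones between 0% and 22.0%.

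Site use and the level of the gene are separate measures. At the gene level 182 of 461 members differed between membrane and cytosol in proliferating cells (background 34.8%), 113 higher (background 23.2%) and 69 lower (11.6%) in membrane, and 106 in differentiating cells (background 20%), and 150 differed between the states (background 35.6%), 51 higher (16.3%) and 99 lower (19.3%) in differentiating cells. The count of 106 was 68 without the first differentiating cytosolic polysome library and 161 with the replicate block (background 32.8%). In these bulk samples, fewer cells of a type and less RNA per cell cannot be told apart. Ncam1 (log2 3.55), Matn2 (2.78) and Tm4sf1 (2.45), which code for surface or secreted proteins, were higher in the proliferating membrane. Eny2 (-1.22), Znrf2 (-1.17) and Nras (-1.06), a small GTPase, were lower there, although the last sites of Znrf2 and, after puromycin, of Nras took larger shares in the membrane.

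Puromycin ends translation early and frees messages from their ribosomes, and the fraction comparison was repeated with it. The untreated and 0-minute libraries served together as not exposed, and the 30- and 60-minute libraries as exposed, so the 2 libraries of a group are not replicates of 1 condition. Without exposure 46 member sites in 38 genes were called between membrane and cytosol (3.25% of the members' sites, background 4.52%), with 15 last sites higher (background 4.06%) and 2 lower (0.962%) in the membrane. With exposure 64 sites in 53 genes were called (4.53%, background 5.96%), with 35 last sites higher (background 6.37%) and 1 lower (0.605%). The 35 higher last sites and the 1 lower make 7.79% of the members' last sites against a background of 6.98%. The median log2 odds ratio of the last sites was 0.27 without and 0.29 with exposure, and that of the first sites -0.24 with exposure.

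These counts depended on which exposure times were fitted. Without both 30-minute libraries 0 sites were called in the exposed cells, and without both 60-minute libraries 2, while without the untreated or the 0-minute libraries 172 and 169 were called. For cells not exposed the counts were 75 without the untreated, 38 without the 0-minute, 14 without the 30-minute and 15 without the 60-minute libraries. In these fits the 1 library left in a group was assumed to vary like the others. With a term for each exposure time 123 sites in 85 genes were called in exposed (background 10.9%) and 99 in 68 genes in cells not exposed (background 8.88%).

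The last site of Znrf2 held 5.71% and 11.1% in the untreated and 0-minute cytosol and 35.0% and 32.4% in the membrane, and after 30 and 60 minutes 3.50% and 1.53% in the cytosol and 31.6% and 26.1% in the membrane. The cytosol was below the membrane at every time, and the log2 odds ratio was 2.41 ± 0.43 without exposure (adjusted p = 0.000528) and 3.85 ± 0.53 with it (adjusted p = 3.47e-05). Nup50 had 1047 to 2013 reads per library, and its last site, 2895 nucleotides after the middle one, held 8.81% and 11.6% in the exposed cytosol and 21.8% and 26.0% in the exposed membrane (log2 1.47 ± 0.27, adjusted p = 0.00106). Mapre1, with 1968 to 4288 reads, gave 48.1% and 41.6% in cytosol and 62.5% and 59.6% in membrane (0.94 ± 0.21, adjusted p = 0.00465). For Kif3a, a kinesin motor subunit, the values were 16.3% and 32.9% against 53.0% and 59.2% (2.06 ± 0.50, adjusted p = 0.0107). In all 3 genes the exposed membrane was above the exposed cytosol at both times. Leaving out both libraries of 1 exposure time ended the call of Znrf2 with exposure in 1 of 4 cases and that of Kif3a in 2.

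Further last sites higher in the exposed membrane were those of Kpnb1, the nuclear import receptor importin beta (log2 1.10 ± 0.28, adjusted p = 0.0176), Nras (1.27 ± 0.39, adjusted p = 0.0456), Tardbp (1.66 ± 0.50, adjusted p = 0.0411), E2f3, a cell cycle transcription factor (1.38 ± 0.40, adjusted p = 0.0368), Asb1 (1.88 ± 0.47, adjusted p = 0.014) and Rnf220 (1.86 ± 0.49, adjusted p = 0.0191). The exception was Hspa14, a chaperone of the ribosome, whose last site was lower (-1.81 ± 0.49, adjusted p = 0.0225) and whose first site was higher in the membrane (2.72 ± 0.45, adjusted p = 0.000274). The first site of Hspa14 held 34.8% and 55.4% in the exposed cytosol and 84.1% and 84.4% in the exposed membrane. Of 59 genes on a list of vesicle traffic and GTPases 3 were members (Nras, Rab11a and Rab2a), of which the last site of Nras was called, and of 58 chromatin and transcription genes 3 were members (E2f3, Jun and Kdm5b), of which that of E2f3 was called. The background for a last site higher in the exposed membrane was 6.37%, and with 3 members a list the counts show nothing particular to either. In the proliferating gradient without the block 0 genes of any of the 10 lists were called between the fractions.

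Steps between neighbouring sites in exposed cells were again larger at longer distances, but the longest class was not above the one before it. The member medians were -0.08, 0.14, 0.50 and 0.44 from the shortest to the longest class, against 0.04, 0.18, 0.64 and 0.61 in genes with 2 sites. In the class of 1000 or more but under 4000, 72.2% of the members' pairs were above 0, and in the longest class 66.7%. Steps were called for 33 pairs in 32 genes (background 5.76%), and for 0 without the 30-minute, 1 without the 60-minute, 82 without the 0-minute and 80 without the untreated libraries. In 29 of the 32 genes 1 step was higher and in 2 genes 1 was lower, while Syncrip, a protein that binds 3′ untranslated regions and has 4 major sites, had called steps in opposite directions. With a term for each exposure time 65 steps in 61 genes were called (background 11%), with 1 step higher in 53 genes, 1 lower in 4, several higher in 2 and opposite steps in 2. The second site of Syncrip held 16.2% and 18.1% in the exposed cytosol and 30.6% and 26.2% in the membrane, and site 3 held 25.5% and 27.8% against 17.1% and 18.6%.

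The puromycin contrast within a fraction set exposed against not exposed libraries. In the cytosol 10 member sites in 8 genes were called (background 0.691%), of which 2 last sites were lower (background 0.356%), and the median log2 odds ratio of the last sites was -0.08. On the membrane 0 were called by edgeR and by DESeq2 (background 0.0532%), with 63 at an unadjusted p under 0.05. Without the 0-minute libraries 49 were called in the cytosol and 17 on the membrane, without the untreated 16 and 6, and without the 30- or the 60-minute libraries 1 in the cytosol.

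Med14 had the largest value among the 10 sites called in the cytosol. Its first site held 4.35% and 2.14% in the cytosol not exposed (95% Wilson intervals 1.87% to 9.78% and 0.731% to 6.11%) and 42.1% and 37.3% in the exposed cytosol (36.8% to 47.6% and 31.2% to 43.9%). In the membrane it held 32.0% and 34.8% and then 23.0% and 22.5%. The intervals of the cytosolic libraries do not overlap, and the order of the fractions was turned around by exposure. In the cytosol the log2 odds ratio was 4.32 ± 0.46 (adjusted p = 1.22e-06). The membrane to cytosol value was 3.91 ± 0.46 without exposure (adjusted p = 1.51e-06) and -1.17 ± 0.32 with it (adjusted p = 0.025). The reads of the gene in the cytosol were 115, 140, 323 and 217 from untreated to 60 minutes. The change of the fraction effect with exposure was called at 3 member sites in 2 genes (background 0.585%), and at 11 sites in 8 genes with a term for each exposure time (background 1.44%).

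The last sites of Cyld and Tm4sf1 were lower in the exposed cytosol. Cyld, a deubiquitinase of inflammatory signalling, gave 41.2%, 34.3%, 14.9% and 12.5% from untreated to 60 minutes in the cytosol and 36.6%, 33.7%, 35.9% and 36.7% in the membrane (cytosol log2 -1.91 ± 0.42, adjusted p = 0.0168). Tm4sf1 gave 47.2%, 35.6%, 21.4% and 19.6% in the cytosol (log2 -1.52 ± 0.34, adjusted p = 0.0206), and its middle site 29.6%, 44.1%, 63.0% and 67.8% (log2 1.78 ± 0.35, adjusted p = 0.00452). In the membrane the last site of Tm4sf1 held 34.8%, 26.2%, 18.4% and 14.8%. Both exposed cytosolic libraries lay below both that were not exposed, for Cyld and for Tm4sf1. Leaving out 1 exposure time ended the call of Cyld in 2 and that of Tm4sf1 in 3 of 4 cases. The reads of Tm4sf1 in the cytosol were 108 and 59 without exposure and 1001 and 774 with it.

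**Figure D5:**
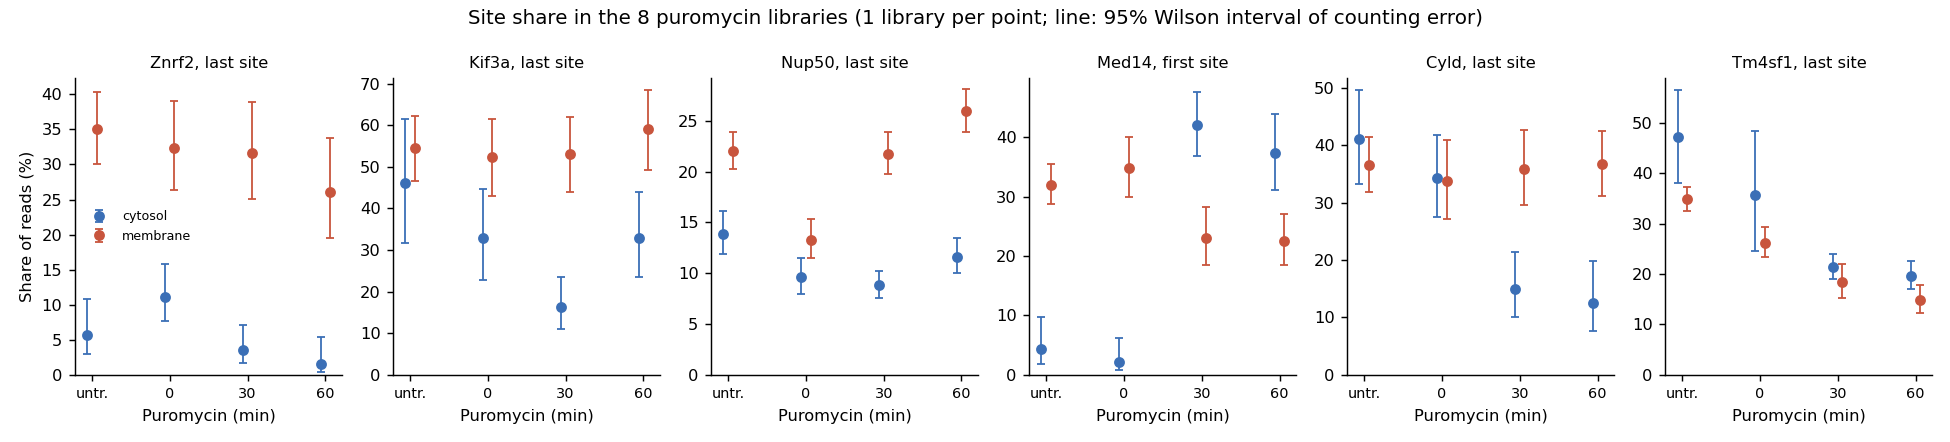
Share in percent of the last site of Znrf2, Kif3a, Nup50, Cyld and Tm4sf1 and of the first site of Med14 in the 8 puromycin libraries, untreated and after 0, 30 and 60 minutes (blue cytosol, red membrane), with 95% Wilson intervals, which cover counting error only. The first site of Med14 is at 4.35% and 2.14% in the cytosol before and at 42.1% and 37.3% after exposure.

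The libraries that did not enter the gradient fit gave values for the same sites. Of the 5 last sites called in proliferating gradient cells, 5 had the same sign in the puromycin libraries without exposure, 5 with exposure and 5 in the whole extracts. Of the 34 called with the replicate block the numbers were 32, 30 and 31, and over all 462 last sites 296, 301 and 274. Across 283 members with a mean of at least 50 reads per gradient and per puromycin library, the log2 odds ratio of the last site in the proliferating gradient and in the libraries not exposed had a Pearson's r of 0.49 and a Spearman's coefficient of 0.46. With the exposed libraries the values were 0.39 and 0.39, and between the proliferating and differentiating gradient libraries 0.31 and 0.41. The libraries set against each other are separate, genes are not independent replicates, and the values are a description.

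The RNA-seq table holds reads in the constitutive part of the 3′ untranslated region and in the alternative part behind it, with 1 library per fraction and so no replicate check. The division between the parts need not lie at the first major site used here. Sec14l1 had 0 reads in the alternative part in every fraction, although its last major site held 64.8% of its pooled 3′ end reads. The RNA-seq ratio and the share of the last site are therefore differently defined measures. Of the members, 187 had enough reads in both fractions, and the log2 ratio of the alternative to the constitutive part was higher in membrane than in cytosol in 142 (75.9%), with a median difference of 0.45, against 79% and 0.47 over 3349 genes. Insoluble against cytosolic RNA gave a median of 0.44 over 180 members, and insoluble against membrane RNA -0.01 over 220. For Znrf2 the membrane to cytosol difference was 1.11, for Arhgef2 0.89, for Rnf220 0.68 and for Mapre1 0.38. Other named members past the read limit were negative, such as Adamts5 (-1.45) and Eny2 (-0.81). Med14 gave 1.22, although it was its first site that was higher in the membrane. Asb1 gave -0.24, but its constitutive part held only 16 reads in cytosol and 18 in membrane. Both are below the read limit for these ratios, so no conclusion is drawn from the sign of Asb1. Across the 187 members, the membrane to cytosol difference was set against the log2 odds ratio of the last site in the proliferating gradient. Pearson's r was 0.047 and Spearman's coefficient 0.086, and the sign was the same in 117. Most values of both measures are above 0, so a like sign in many genes needs no relation between them.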

How the data were processed

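3′ ends were measured in 26 libraries and 3′ untranslated region reads in 3 RNA-seq libraries. The values are whole-number read counts as deposited by the authors, per pA site or per region, and the authors' tables hold no normalization. The submitters' processing notes name Bowtie2, STAR 2.5.2, cutadapt and the mm9 build, and how sites were counted and assigned to genes is not given in the sources used here. The members and the gene lists were chosen with earlier results of these data known.

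Of 125369 listed positions, 651 under several gene symbols (0.560% of reads) were dropped. Site reads against the other reads of the gene were fitted in edgeR 4.0.16 (quasi-likelihood, robust, R 4.3.3), with a term for each library and for site by group, separately for the 16 gradient and the 8 puromycin libraries, and p-values were adjusted by Benjamini-Hochberg over all sites. Gene counts were scaled by TMM. DESeq2 1.42.0 was an alternative, and the fits were tested on simulated counts. Replicate numbers come from the labels. Deviations of same-numbered libraries from their group means correlated in all 28 pairs of groups (r 0.29 to 0.63, median 0.46), so the numbers pair the libraries and the blocked value is given where it moves a count by more than 1.5 times. Unless the block is named, errors, adjusted p-values and left-out-library results come from the fit without it. That fit ignores the pairing and called fewer member sites in most gradient contrasts. The term for each exposure time was added after seeing the data. RNA-seq ratios used at least 20 reads in each part and a pseudocount of 1. Wilson intervals cover counting error only, since reads without molecular identifiers are not independent molecules.

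Genes were named by rule: up to 4 last sites a direction with the largest change among those called, in genes with a mean of at least 50 reads a library and the same sign in both replicates, the most-read members, those with most sites, up to 2 per list, and those with steps called in opposite directions. Clone and predicted symbols were passed over. First and middle sites given in the text, and Gorasp2, Slc4a8, Mlec, Sft2d2, Mycbp and Atp6v1c1, were chosen after their values were seen. Sequences around the sites were not used here.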

Additional observations from a re-analysis of the deposited data

Results flagged for a closer look

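A difference between membrane and cytosol that itself differed with puromycin exposure, tested as an interaction, was called at 3 member sites in 2 genes (82 member sites at an unadjusted p under 0.05). That is 0.212% of the members' sites, against a background of 0.585%. For the first site of Med14 the interaction was -5.08 on the log2 scale (edgeR adjusted p = 3.09e-06). It held 2.14% to 4.35% in cytosol and 32.0% to 34.8% in membrane without exposure, and 37.3% to 42.1% and 22.5% to 23.0% with it. For Gorasp2, a protein that holds Golgi stacks together, it was 1.79 at the first (adjusted p = 0.00221) and -1.45 at the middle site (adjusted p = 0.029). The first site of Gorasp2 held 77.7% to 80.5% in cytosol and 52.6% to 55.3% in membrane without exposure and 54.9% to 62.1% and 59.3% to 61.1% with it, from at least 1103 reads per library. Without both libraries of 1 exposure time the count of 3 was between 1 and 11.

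With a term for each exposure time, 11 sites in 8 genes were called (0.778% of the members' sites, background 1.44%). These were the first (-5.07) and last (1.54) site of Med14, the first (1.79), middle (-1.46) and last (-1.15) site of Gorasp2, the last site of Cyld (2.00), and the first sites of Slc4a8, a bicarbonate transporter (3.13), Lrrfip2, a leucine-rich repeat protein (-2.11), Sft2d2, a vesicle transport protein (-1.49), Mlec, a lectin of the endoplasmic reticulum (-1.45), and Rab2a (-0.93). In the cytosol the first site of Slc4a8 held at least 45.3% without and 13.3% to 13.4% with exposure, that of Mlec 4.29% to 10.1% and 19.5% to 23.7%, that of Lrrfip2 2.16% to 5.33% and 10.3% to 11.9%, and that of Sft2d2 42.1% to 45.3% and 53.5% to 65.0%. The matching membrane values were 7.17% to 8.50% and 7.01% to 9.55% for Slc4a8, 12.3% to 18.3% and 18.1% to 20.1% for Mlec, 22.6% to 29.7% and 20.0% to 22.7% for Lrrfip2, and 42.1% to 45.7% and 32.7% to 36.4% for Sft2d2. The cytosolic ranges with and without exposure did not overlap for these 4 genes, and those of Rab2a (14.2% to 15.5% and 14.7% to 18.5%) did. Slc4a8 had as few as 20 reads in the cytosol not exposed. The highest edgeR adjusted p-values were 0.047 (last site of Med14), 0.0418 (Sft2d2), 0.0347 (Cyld) and 0.0346 (Rab2a).

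The polysome to monosome difference differed between membrane and cytosol at 9 sites with the replicate block and at 0 without it (background 0%). With the block that is 0.637% of the members' sites, against a background of 0.982%. In membrane minus cytosol on the log2 scale the named values were -4.67 for the last site of Adamts5, 2.35 for the middle site of Mycbp, which binds the MYC protein, and -1.38 for the last site of Sec14l1. The first sites gave -2.83 for Rbbp6, -2.74 for Slc4a8, 1.84 for Med14, 1.66 for Atp6v1c1, a subunit of the proton pump of lysosomes, and -1.11 for Gorasp2. The edgeR adjusted p-values of the named sites ran from 0.0108 (Mycbp) to 0.0483 (Med14). Some of these log2 values rest on few reads: cytosolic libraries held as few as 7 reads of Adamts5, 10 of Rbbp6 and 16 of Slc4a8.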

How the results depend on the processing

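Of 51 single-site results under the alternatives run, 838 values kept direction and side of the threshold, 45 passed it newly, 165 no longer passed it and 0 reversed. Many named sites were chosen because they were called with the same sign in both replicates or exposures. A reversal was therefore unlikely from the start. Counts of member sites called follow, without the background share of each setting, so they show nothing particular to the members. The paired analysis (replicate block) gave 142 for state, 77 for membrane against cytosol in proliferating and 13 in differentiating cells, 78 for polysome against monosome in cytosol, 42 on the membrane, 9 for their difference, steps of 77 (state), 38 (proliferating) and 9 (differentiating), and 161 genes for the differentiating fractions. A term per exposure time gave 123 (exposed), 99 (not exposed), 11 (by exposure) and 65 steps. Major sites at 20% gave, for state, by exposure, differentiating, exposed, not exposed, proliferating, cytosolic gradient, membrane gradient and puromycin in cytosol, 8, 0, 0, 20, 12, 3, 7, 1 and 0, and at 10% they gave 64, 11, 5, 154, 113, 39, 32, 11 and 17. Sites under 100 nucleotides apart merged gave 6 by exposure and 1 for puromycin on the membrane. Minutes as a slope gave 1 and 3 (by exposure and puromycin in cytosol), DESeq2 2 in differentiating and 9 in the membrane gradient. A spliced-exon test (diffSpliceDGE) gave 2 for state, 1 by exposure, 0 differentiating, 5 exposed, 6 not exposed, 5 proliferating, 4 cytosolic gradient and 1 puromycin in cytosol. Leaving out 1 library gave 10 to 26 for state, 9 to 19 proliferating, 0 to 2 differentiating, 5 to 17 cytosolic and 2 to 5 membrane gradient, 0 to 0 for both differences, steps of 3 to 14 (state), 5 to 9 (proliferating) and 0 to 0 (differentiating), and at the gene level 121 to 152 (state), 68 to 105 (differentiating) and 137 to 189 (proliferating). Leaving out 1 exposure time gave 0 to 172 exposed, 14 to 75 not exposed, 1 to 11 by exposure, 1 to 49 and 0 to 17 for puromycin in cytosol and membrane, and 0 to 82 steps. The cause was not tested. Median depths of 24 to 127 reads per member limit single sites in the gradient.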
